A study of Mus musculus with 15 samples.

Results

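This account covers 39 genes for nuclear receptors and their coregulators, all of which were found among the 23995 gene symbols measured in mouse fat from around the prostate. They were chosen by name: 34 receptors, leaving aside those for steroid hormones and the clock receptors, and 5 coregulators. Male C57BL/6J mice (the sample labels say C57BL/6) were compared in 3 groups of 5 mice, with 1 RNA-sequencing library per mouse. LFD mice were fed 10% of energy as fat from 6 weeks of age (the low fat diet) and carried no pellet. Both other groups ate a high fat diet (HFD) with 60% of energy from fat. After 12 weeks on that diet they received, under the skin, either a placebo pellet (HFD placebo) or a pellet with 0.25 mg estradiol that releases it over 60 days (HFD estradiol). Tissue was taken 8 weeks later, at 26 weeks of age. LFD and HFD placebo therefore differ both in diet and in having a pellet, and the effects of these cannot be told apart. HFD estradiol and HFD placebo differ by the hormone and, in part, by sequencing lane.

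Nuclear receptors are transcription factors, many of which are switched by small fat-soluble ligands such as fatty acids, oxysterols, retinoids, thyroid hormone and vitamin D. Many bind DNA at copies of the half-site AGGTCA, often as a pair with a retinoid X receptor. Without ligand several of them hold corepressors such as the product of Ncor1, and with ligand they exchange these for coactivators such as the products of Ncoa1, Ncoa2 and Ncoa3. In fat the best known member is Pparg, the master regulator of adipocyte formation and the target of the thiazolidinedione drugs.

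RefSeq start sites (GRCm38.p6, the build called mm10) were at hand for 35 of the 39 genes, with 55 starts in all. The 250 bases before each start were searched for AGGTCA on both strands (TGACCT on the other strand). The half-site was found before 10 of the 55 starts, in 9 genes (Nr0b1, Nr1h4, Nr5a2, Nr6a1, Pparg, Rarg, Rxra, Rxrg and Thrb), against 14.0% of 32851 starts of all genes. A match says only that these letters are there, and mismatched copies were not searched. The following 3 stretches are shown for receptors whose transcript changed below, each 5′ to 3′ on the gene's strand with any half-site in capitals. They are the 1 of 3 starts of Pparg that has no match (the stretches before the other 2 hold a half-site each but overlap annotated exons and are not printed; chr6:115421816-115422065, plus strand), 1 of Rxra with a half-site on each strand (chr2:27709042-27709291, plus strand) and 1 of Rarg with TGACCT near its far end (chr15:102257523-102257772, minus strand). None of the 3 overlaps an annotated exon.
Pparg: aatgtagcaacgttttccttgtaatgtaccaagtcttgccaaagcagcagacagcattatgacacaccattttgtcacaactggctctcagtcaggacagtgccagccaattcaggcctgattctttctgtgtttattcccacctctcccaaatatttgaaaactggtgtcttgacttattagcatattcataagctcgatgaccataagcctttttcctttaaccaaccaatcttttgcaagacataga
Rxra: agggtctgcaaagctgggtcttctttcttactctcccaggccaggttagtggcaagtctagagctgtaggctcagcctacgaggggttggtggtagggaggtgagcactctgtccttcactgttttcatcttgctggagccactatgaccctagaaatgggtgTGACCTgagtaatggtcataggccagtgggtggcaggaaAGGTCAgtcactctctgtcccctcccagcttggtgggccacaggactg
Rarg: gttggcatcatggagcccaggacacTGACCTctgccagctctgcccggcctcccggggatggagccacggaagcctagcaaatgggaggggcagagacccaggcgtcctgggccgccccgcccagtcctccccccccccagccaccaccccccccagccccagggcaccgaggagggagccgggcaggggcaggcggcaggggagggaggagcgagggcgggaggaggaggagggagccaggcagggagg

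The deposited unit is FPKM, fragments per kilobase of transcript scaled to the total of the library, with 1 value per gene symbol, so the starts of a gene cannot be told apart in these data. Values below are scaled FPKM: each library was multiplied by 1 factor (0.309 to 2.08) that sets the typical gene level equal across libraries. Deposited FPKM summed to 34449 to 38755 per LFD library, while the HFD placebo sums lay between 34544 and 105910 and the HFD estradiol sums between 37561 and 60725. By an estimate from the steps between low values, a scaled FPKM of 1 in a transcript of 2 kb rested on 20.6 to 40.2 fragments in the LFD libraries, on 34.9 to 221 under HFD placebo, and on 36.7 to 96.2 under HFD estradiol. Sequencing lane follows the groups: per the file names, all LFD libraries and HFD placebo 1 to 3 were on lane 5, and HFD placebo 4 and 5 and all HFD estradiol libraries on lane 6. Single libraries stood apart in marker genes of other tissues. Ucp1, the uncoupling protein of brown fat, was at 34.2 in LFD mouse 2, 26.6 in HFD placebo mouse 4 and 13.5 in HFD placebo mouse 3, and no higher than 4.96 in the other 12 libraries. Spink3, a gene of male accessory glands, was at 125 in LFD mouse 5 and no higher than 0.187 in the others.

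In bulk tissue, fewer cells of a type and less RNA per cell cannot be told apart, and cell type markers moved with the groups. The summed level of 6 adipocyte markers (Adipoq, Plin1, Lep, Fabp4, Cidec, Lipe) was 1171 to 1756 in LFD and 820 to 1373 in HFD placebo. With estradiol it was 1152 to 1649. Fabp4 makes up most of this sum, and Lep, the leptin gene, went the other way, from 23.1 ± 7.10 (SD, n = 5) in LFD to 53.0 ± 7.67 in HFD placebo (limma adjusted p = 2.1e-04) and 26.4 ± 6.86 in HFD estradiol (0.0014 against HFD placebo). That of 8 macrophage markers was 36.4 to 98.6, 119 to 383 and 47.2 to 128 in the same order, with no overlap between LFD and HFD placebo. The macrophage marker Trem2 was at 0.0596 to 0.389 in LFD and 4.26 to 11.3 in HFD placebo. No marker of either list was at 0 throughout a group. The 7 endothelial markers summed to 18.5 to 21.5, 15.8 to 22.3 and 16.6 to 20.7, and the 6 progenitor markers to 62.2 to 100, 73.3 to 137 and 112 to 190. The 4 lymphocyte markers summed to 1.88 to 3.26, 0.196 to 1.75 and 0.47 to 2.18, with no overlap between LFD and HFD placebo. For the 4 mesothelium markers it was 2.08 to 7.08, 0.724 to 3.54 and 1.99 to 5.37. The 4 of smooth muscle and pericytes gave 9.26 to 15.4, 8.31 to 15.8 and 8.24 to 15.8. The 3 of skeletal muscle gave 0.349 to 15.4, 0.597 to 1.88 and 0.222 to 10.1. The part of these cell types in the results below was not tested.

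The 39 genes spanned a wide range of levels. FPKM is per transcript length, so scaled FPKM can be set side by side between genes. Pparg led with a mean of 14.1 over the 15 libraries (7.63 to 26.4), and its lowest library lay above the highest library of every other member. Ncor1 came next at 4.95 (3.68 to 6.57). Nr1h3, the liver X receptor alpha that senses oxysterols, had 3.95, Rxra, the common partner of many receptors, 2.98, and Thra, the thyroid hormone receptor alpha, 2.74. The ranges of these 4 genes over the 15 libraries overlap one another. Nr1h2 (liver X receptor beta), Ncoa3, Ncoa1, Rarg (retinoic acid receptor gamma), Ncoa2 and Rora followed with means between 1.75 and 0.937. These 11 genes reached 1 scaled FPKM in at least 5 libraries and entered the main test. Rora did so through all 5 LFD libraries and 1 HFD estradiol library, and Rarg through all 5 HFD estradiol libraries and 2 of each other group, so a count over the tested genes is not a count over the family.

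**Figure D1:**
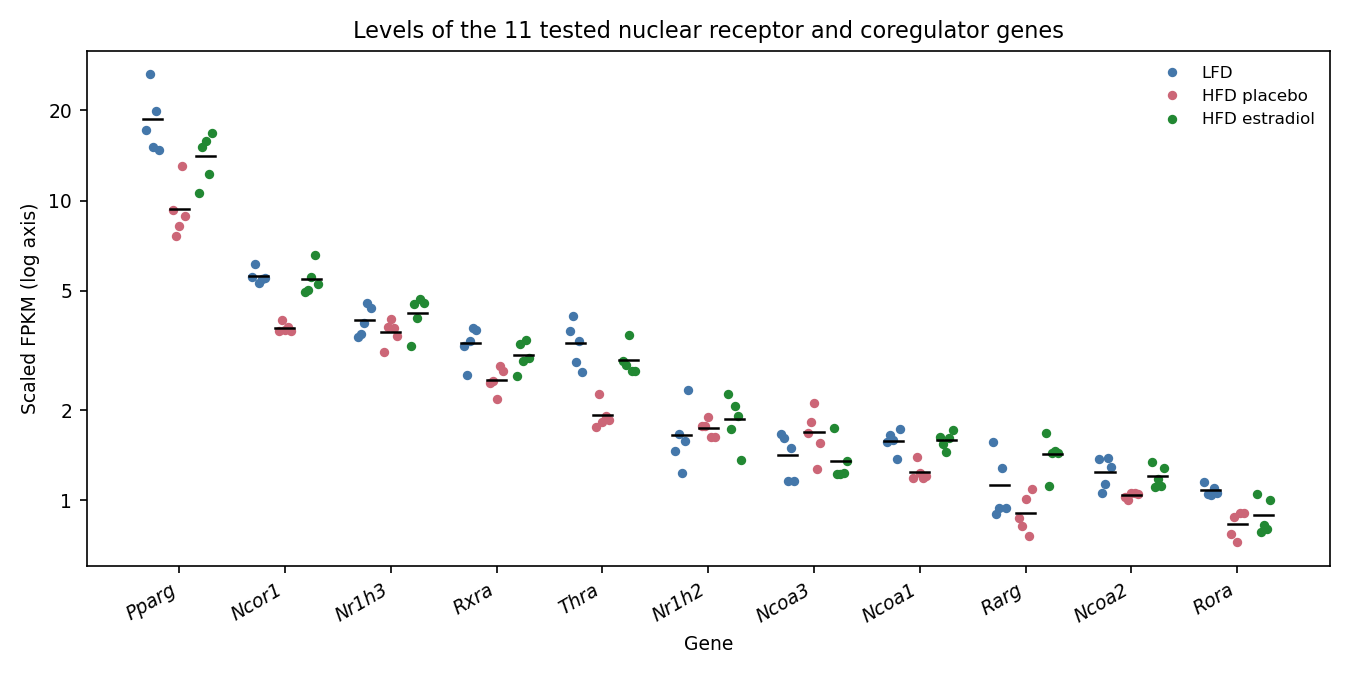
Scaled FPKM (log axis) of the 11 tested genes in each of the 15 libraries. Points are mice, coloured by group, and black bars are group means; Pparg lies above all others, and Ncor1 and Thra sit lower in HFD placebo than in either other group.

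A further 19 genes lay below that level but at 0.1 scaled FPKM or more in at least 5 libraries. They range from Rara at a mean of 0.761 down to Nr5a2 at 0.101, and include Ppara (0.277) and Ppard (0.456), the PPARs best known for fatty acid oxidation. The remaining 9 were at or near 0. The orphan receptors Nr0b1 and Nr0b2 were listed at 0 in all 15 libraries, and Nr1i2, Nr1i3 and Hnf4a, receptors best known from the liver, above 0 in a single library each. Esrrb was at 0 in 11 libraries. Vdr, the vitamin D receptor, reached at most 0.0742, Esrrg 0.152 and Nr4a3 0.15.

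The first comparison asks how these genes differ between HFD placebo and LFD. Of the 11 tested genes, 7 fell and 0 rose (limma, Benjamini-Hochberg adjusted p under 0.05 over 5615 tested genes), where 22.0% of all tested genes fell and 21.3% rose. The median log2 fold change of the 11 was -0.18, beside -0.01 for all tested genes. The genes that fell were the receptors Pparg, Thra, Rxra and Rora, the coactivators Ncoa1 and Ncoa2, and the corepressor Ncor1. Rora passed the level filter only through LFD, where it is high, so its place in this count was favoured by the filter. With the lower filter its log2 fold change was -0.34 (limma adjusted p = 0.0161). Without any scaling of the deposited FPKM the median over the tested genes moves to 0.77, all 7 have positive values and none is called, so each direction here is relative to the typical gene. A constant sum per library moves that median to 0.29, Rxra, Rora, Ncoa1 and Ncoa2 to positive values, and ends all 7 calls. Within lane 5, with 5 LFD and 3 HFD placebo libraries, 5 of the 7 kept their call. Their log2 fold changes were -1.04 for Pparg, -0.56 for Thra, -0.36 for Rxra, -0.22 for Rora and -0.46 for Ncor1. Over all 5615 tested genes, 1234 fell in the main fit and 985 within lane 5. As deposited 18 of them fell, and 195 with a constant sum.

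Pparg (chr6:115360951-115490399, plus strand, GRCm38) measured 17.2, 26.4, 15.1, 19.9 and 14.8 in LFD mice 1 to 5. In HFD placebo mice 1 to 5 it measured 9.27, 7.63, 8.22, 13.0 and 8.86. Every HFD placebo library was below every LFD library, and the highest of each group, LFD 2 and HFD placebo 4, were the libraries highest in Ucp1. The mean was 18.7 ± 4.77 (SD, n = 5) in LFD and 9.40 ± 2.13 (SD, n = 5) in HFD placebo. The log2 fold change was -0.91 (SE 0.17), with a limma adjusted p of 4.5e-04. Without the 3 libraries highest in Ucp1 it was -0.88 with a limma adjusted p of 4.2e-04.

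Thra (chr11:98740638-98769006, plus strand) is the more abundant of the 2 thyroid hormone receptor transcripts here. Its levels were 3.67, 4.11, 2.89, 3.41 and 2.69 in LFD and 1.76, 2.26, 1.82, 1.91 and 1.86 in HFD placebo, mice 1 to 5 in order. The groups do not overlap, and the HFD placebo libraries lie close together. The log2 fold change was -0.57 (SE 0.09), with a limma adjusted p of 1.1e-04. Thra shares 263 exon bases with Nr1d1 on the opposite strand, a clock receptor that also fell (log2 fold change -0.94), and no source used here says whether counting used strand, so fragments from the shared bases cannot be told apart.

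Ncor1 (chr11:62316426-62458541, minus strand), a scaffold of histone deacetylase complexes, measured 5.57, 6.13, 5.30, 5.48 and 5.50 in LFD and 3.68, 4.01, 3.69, 3.80 and 3.68 in HFD placebo. The lowest LFD library was above the highest HFD placebo library, and the log2 fold change was -0.47 (SE 0.07) with a limma adjusted p of 7.5e-05. Both groups vary by far less than the distance between them.

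Rxra (chr2:27676440-27762957, plus strand) measured 3.26, 2.62, 3.40, 3.77 and 3.71 in LFD. In HFD placebo it measured 2.46, 2.51, 2.18, 2.80 and 2.70. The groups overlap through LFD mouse 2, the lowest of its group, and the log2 fold change was -0.30 (SE 0.08, limma adjusted p = 0.0085). Ncoa1, a p160 coactivator, went from 1.58 ± 0.133 (SD, n = 5) to 1.24 ± 0.0872, a log2 fold change of -0.20 with a limma adjusted p of 0.0046. Rora, a receptor tied to the clock and to lipid metabolism, went from 1.08 ± 0.0455 to 0.837 ± 0.0841, a log2 fold change of -0.18 with a limma adjusted p of 0.015. Without the 3 libraries highest in Ucp1 the call of Rora was lost (limma adjusted p = 0.0651). With an upper-quartile factor the calls of Rxra (0.0644) and Rora (0.0844) were lost. Ncoa2 went from 1.24 ± 0.143 to 1.04 ± 0.0262 and lies at the threshold, with a log2 fold change of -0.13 and a limma adjusted p of 0.0472. Its call was lost when any of 8 of the 10 mice of the 2 groups was left out. The call of Ncoa2 was lost as well with the upper-quartile factor, with lane as a term and with only the 2 groups compared in the fit.

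The other 4 tested genes were not called. Nr1h3 was at 3.98 ± 0.460 (SD, n = 5) in LFD and 3.65 ± 0.344 in HFD placebo, with a log2 fold change of -0.10 (SE 0.09). Nr1h2 was at 1.65 ± 0.411 and 1.74 ± 0.112, with a log2 fold change of 0.06 (SE 0.10). Both liver X receptors therefore overlapped between the groups. Rarg had a log2 fold change of -0.15 (SE 0.09). Ncoa3, the third p160 coactivator, had 0.15 (SE 0.09; 1.42 ± 0.241 and 1.69 ± 0.316), the largest positive value of the 11, and with lane as a term it was called higher. Ncoa3 shares 154 exon bases with Sulf2 on the opposite strand.

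In the fit with the lower level filter (0.1 scaled FPKM in 5 libraries, 12693 genes, 0.1 added before the log), 9 of 30 members fell and 0 rose in HFD placebo, where 15.6% of genes fell and 16.1% rose. Those called there and not tested above were Nr2f2, Ppargc1b and Thrb. Ncoa2, called in the main test, was not called there (log2 fold change -0.23, limma adjusted p = 0.0655). Nr2f2, also called COUP-TFII, an orphan receptor of mesenchymal and vascular cells, measured 0.851, 0.787, 0.677, 0.579 and 0.793 in LFD and 0.385, 0.342, 0.241, 0.238 and 0.324 in HFD placebo. No library of one group reached the other, and the log2 fold change was -1.05 (SE 0.13) with a limma adjusted p of 1.9e-05. Nr2f2 shares 643 exon bases with B130024G19Rik on the opposite strand, which is itself at a mean of 0.124.

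Ppargc1b, a coactivator of the estrogen-related receptors and PPARs (PGC-1 beta), measured 0.350, 0.455, 0.464, 0.398 and 0.429 in LFD and 0.148, 0.132, 0.197, 0.288 and 0.105 in HFD placebo. The groups do not overlap, and HFD placebo mouse 4, with high Ucp1, was the highest of its group. The log2 fold change was -0.95 (SE 0.16), with a limma adjusted p of 2.6e-04. Thrb, the second thyroid hormone receptor, went from 1.03 ± 0.329 (SD, n = 5) to 0.541 ± 0.145, a log2 fold change of -0.79 (SE 0.22) with a limma adjusted p of 0.0114 and overlapping groups. Within lane 5 all 3 kept their call, with -0.99 for Nr2f2, -1.01 for Ppargc1b and -0.90 for Thrb. With unscaled FPKM all 3 calls were lost, with -0.076 for Nr2f2, -0.044 for Ppargc1b and 0.26 for Thrb. With a constant sum only Nr2f2 of the 3 kept its call (-0.69, limma adjusted p = 0.0165), and Ppargc1b (-0.62, 0.0535) and Thrb (-0.39, 0.22) lost theirs.

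**Figure D2:**
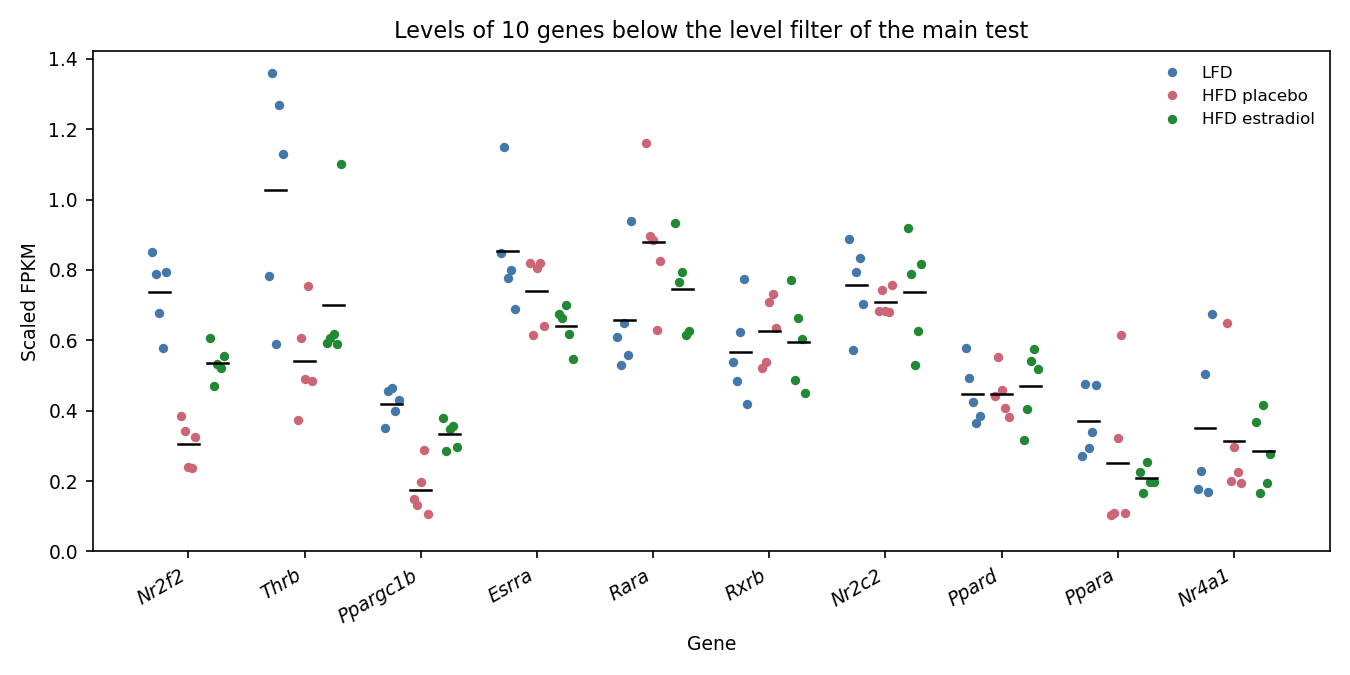
Scaled FPKM of 10 genes below the level of the main test, in each library. Points are mice and black bars are group means; Nr2f2 and Ppargc1b are lowest in HFD placebo, while Ppard, Rxrb and Nr2c2 overlap across the groups.

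The remaining low genes gave no call between HFD placebo and LFD. Rara had the largest positive value, with a log2 fold change of 0.37 (SE 0.16; 0.657 ± 0.164 and 0.880 ± 0.191, SD, n = 5; limma adjusted p = 0.0903). Ppara had -0.60 (SE 0.29), with HFD placebo mice at 0.103, 0.109, 0.322, 0.614 and 0.108. The high libraries there are mice 3 and 4, which are also those with high Ucp1. Ppard was at 0.448 in both group means. Esrra, the estrogen-related receptor that drives mitochondrial genes together with PGC-1 proteins, had -0.17 (SE 0.13). Rxrb, Rxrg, Rarb, Nr1h4, Nr2c1, Nr2c2, Nr2f1, Nr2f6, Nr4a1, Nr4a2, Nr5a2 and Nr6a1 had values between -0.41 (Nr2c1) and 0.16 (Nr2f6), and none passed the test. On the opposite strand, Nr2c2 shares 4590 exon bases with Mrps25 (mean 0.675), Rarb 1793 with Top2b (2.64) and Nr2f6 1622 with Ocel1 (0.334). Whether counting used strand is not known, so the levels of Nr2c2, Rarb and Nr2f6 are uncertain.

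The second comparison asks what estradiol did under the high fat diet. Of the 11 tested genes, 5 rose and 0 fell in HFD estradiol against HFD placebo, where 14.3% of all tested genes rose and 16.0% fell. The median log2 fold change of the 11 was 0.20, beside 0.01 for all tested genes. Those that rose were the receptors Pparg, Thra and Rarg, the coactivator Ncoa1 and the corepressor Ncor1. Rarg would not have passed the level filter without HFD estradiol, where it is high, so its place in this count was favoured by the filter. With the lower filter its log2 fold change was 0.60 (limma adjusted p = 0.0090). This comparison and the first share the HFD placebo libraries, so their values are given side by side and opposite signs are not independent of each other. With lane as a term 3 remained (Thra, Ncoa1, Ncor1), and within lane 6, with 2 placebo and 5 estradiol libraries, 2 remained (Thra, Ncor1). Over all 5615 tested genes, 805 rose in the main fit, 317 with lane as a term and 299 within lane 6. As deposited 13 of them rose, and 259 with a constant sum. With FPKM as deposited or with a constant sum per library none was called, and Ncoa1 was at -0.045 with FPKM as deposited.

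**Figure D3:**
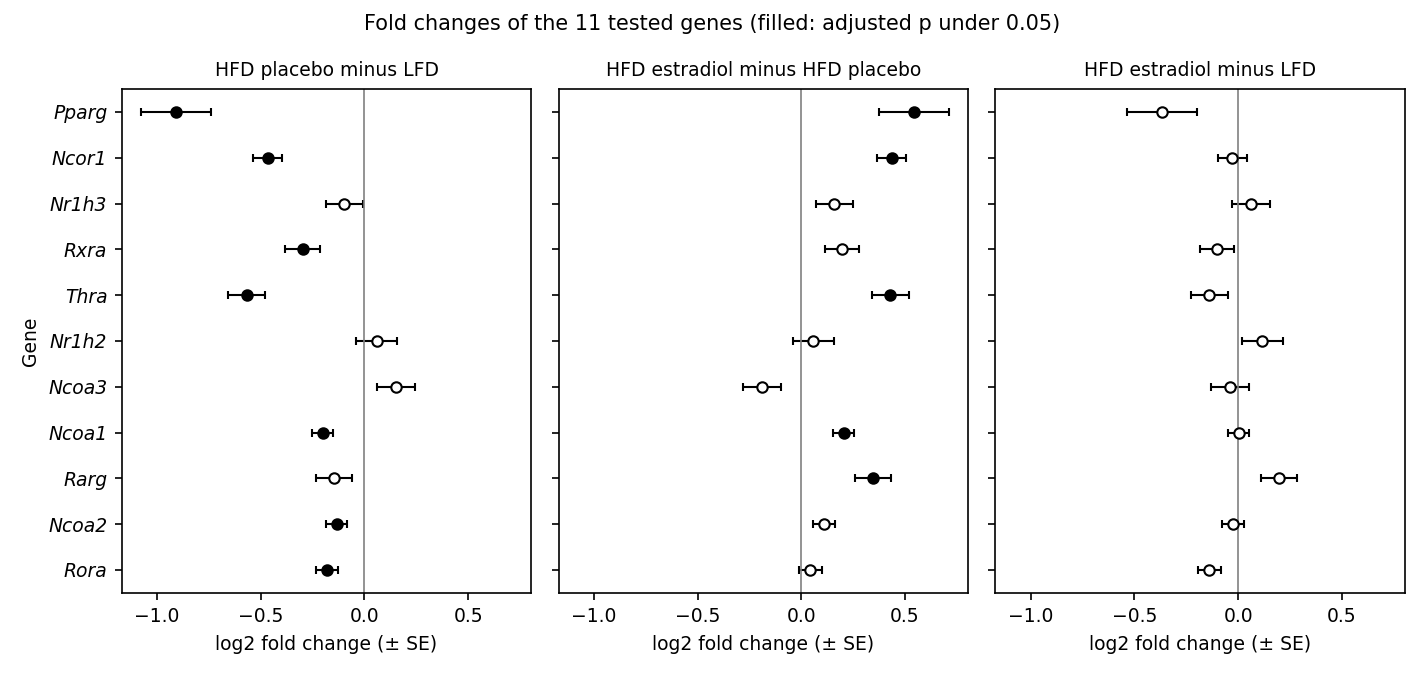
Log2 fold change with its standard error for the 11 tested genes in the 3 comparisons. Filled points have an adjusted p under 0.05: 7 in HFD placebo minus LFD, 5 in HFD estradiol minus HFD placebo, and 0 in HFD estradiol minus LFD.

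Ncor1 measured 4.96, 5.05, 5.58, 6.57 and 5.25 in HFD estradiol mice 1 to 5. All 5 lie above the highest HFD placebo library, 4.01. The log2 fold change was 0.44 (SE 0.07), with a limma adjusted p of 2.4e-04, and within lane 6 it was 0.45 with a limma adjusted p of 0.0371. Thra measured 2.91, 2.82, 3.57, 2.70 and 2.70, again all above the HFD placebo libraries, of which the highest had 2.26. Its log2 fold change was 0.43 (SE 0.09), with a limma adjusted p of 0.0017, and within lane 6 it was 0.44 with a limma adjusted p of 0.0242.

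Rarg (chr15:102234938-102257517, minus strand), a receptor for retinoic acid, measured 1.68, 1.12, 1.44, 1.46 and 1.44 in HFD estradiol and 0.871, 0.821, 1.01, 0.758 and 1.09 in HFD placebo. The groups do not overlap, though HFD estradiol 2 and HFD placebo 5 come close. The log2 fold change was 0.35 (SE 0.09, limma adjusted p = 0.0071). Within lane 6 it was 0.34 with a limma adjusted p of 0.0684. Rarg and its relative Rara had values of opposite sign: for Rara the log2 fold change was -0.20 (SE 0.16) in the fit with the lower filter, and it was not called.

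Pparg measured 10.6, 15.1, 15.8, 12.3 and 16.8 in HFD estradiol, a mean of 14.1 ± 2.59 (SD, n = 5). The groups overlap, since HFD placebo mouse 4 had 13.0. The log2 fold change was 0.55 (SE 0.17), with a limma adjusted p of 0.0225. Within lane 6, which holds HFD placebo 4, it was 0.34 with a limma adjusted p of 0.316. Leaving out HFD placebo 2, HFD placebo 3, HFD estradiol 3 or HFD estradiol 5 also lost the call, with limma adjusted p from 0.0545 to 0.0603, while leaving out the 3 libraries highest in Ucp1 gave 0.64 and 0.0038.

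Ncoa1 measured 1.63, 1.54, 1.45, 1.61 and 1.72 in HFD estradiol, all above the HFD placebo libraries (1.19 to 1.40). Its log2 fold change was 0.21 (SE 0.05, limma adjusted p = 0.0059), and within lane 6 it was 0.23 with a limma adjusted p of 0.0517. Rxra (log2 fold change 0.20, SE 0.08), Ncoa2 (0.11, SE 0.05), Nr1h3 (0.16, SE 0.09) and Ncoa3 (-0.19, SE 0.09) were not called. HFD estradiol mouse 1 weighs on these: without it 8 of the 11 were called, with Rxra and Nr1h3 added among those higher and Ncoa3 lower. Nr1h2 (0.06, SE 0.10) and Rora (0.04, SE 0.06) were not called either.

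In the fit with the lower filter, 7 of 30 members rose and 0 fell with estradiol, where 9.75% of genes rose and 11.5% fell. Those added were Nr2f2 and Ppargc1b. Nr2f2 measured 0.606, 0.470, 0.532, 0.521 and 0.555, all above HFD placebo, with a log2 fold change of 0.66 (SE 0.13, limma adjusted p = 0.0018), and within lane 6 it was 0.75 with a limma adjusted p of 0.0266. Ppargc1b measured 0.380, 0.286, 0.347, 0.355 and 0.298, and HFD placebo mouse 4 at 0.288 overlaps the lowest of these. Its log2 fold change was 0.69 (SE 0.16, limma adjusted p = 0.0051), and within lane 6 it was 0.61 with a limma adjusted p of 0.168. With lane as a term Nr2f2 kept its call (limma adjusted p = 0.0204) and Ppargc1b did not (0.114). Both calls were lost with a constant sum (limma adjusted p = 0.056 for Nr2f2 and 0.078 for Ppargc1b) and with unscaled FPKM, where the log2 fold changes were 0.39 and 0.42. Thrb had 0.31 (SE 0.22) and was not called. Ppara, Ppard and Esrra had 0.01 (SE 0.29), 0.04 (SE 0.15) and -0.18 (SE 0.13).

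The third comparison sets HFD estradiol against LFD, which differ in diet, pellet and lane at once. None of the 11 tested genes was called, where 3.95% of all tested genes were higher and 3.74% lower by limma. The unadjusted limma p was under 0.05 for 3 members. The share of all genes under that limit was not taken, so this count shows no excess. These 3 were Pparg at -0.37 (SE 0.17), Rarg at 0.20 (SE 0.09) and Rora at -0.14 (SE 0.06), as log2 fold changes. Ncor1 was at -0.03 (SE 0.07), Ncoa1 at 0.00 (SE 0.05) and Thra at -0.14 (SE 0.09). A p that misses the threshold does not show equal levels, and for Pparg the estradiol mean of 14.1 lies between those of the 2 other groups. With the lower filter, again none of 30 was called, where 2.15% of genes were higher and 1.75% lower. The unadjusted limma p was under 0.05 for 6, again without the like share of all genes. Nr2f2 (-0.39, SE 0.13) and Esrra (-0.35, SE 0.13) were among these 6.

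Ratios of 2 genes within a library do not depend on the scaling factor. The pairs were chosen after the values were seen, and the ratios are given as a description without a test. Ncoa3 to Ncor1, a coactivator to a corepressor, was 0.298, 0.263, 0.219, 0.271 and 0.211 in LFD and 0.457, 0.454, 0.575, 0.334 and 0.422 in HFD placebo. In HFD estradiol it was 0.351, 0.242, 0.218, 0.187 and 0.256. All HFD placebo libraries lie above LFD, and all but the lowest of them above all of HFD estradiol. Ncoa1 to Ncor1 moved less, with 0.251 to 0.315 in LFD, 0.314 to 0.349 under placebo and 0.245 to 0.328 under estradiol.

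Pparg to Rxra, the 2 partners of the adipocyte heterodimer, was 4.00 to 10.1 in LFD, 3.04 to 4.66 under placebo and 3.60 to 5.62 under estradiol. These ranges overlap, and the 10.1 belongs to LFD mouse 2. Thra to Rxra was 0.725 to 1.57, 0.682 to 0.898 and 0.789 to 1.22 in the same order, and Nr1h3 to Rxra 1.07 to 1.37, 1.27 to 1.85 and 1.26 to 1.52. Rara to Rarg was 0.386 to 0.995 in LFD, 0.753 to 1.33 under placebo and 0.419 to 0.687 under estradiol, with no overlap between the 2 HFD groups. Each HFD placebo library thus had more Rara relative to Rarg than any HFD estradiol library.

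**Figure D4:**
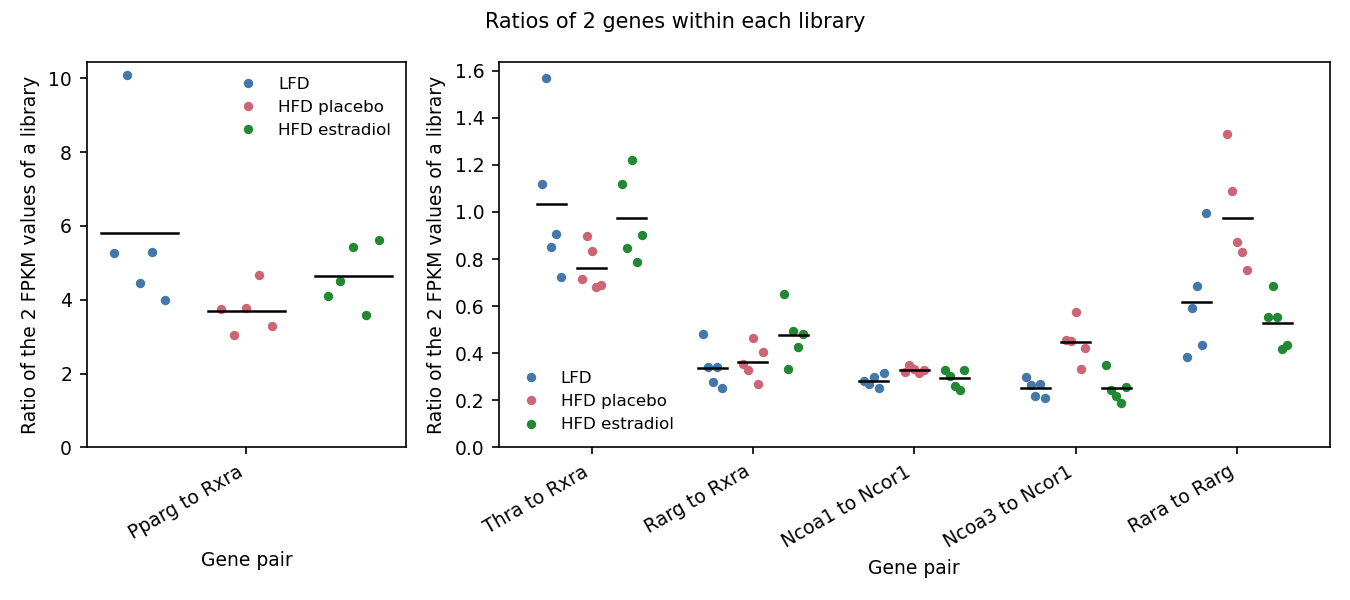
Ratio of the FPKM of 2 genes within each library, which no scaling factor changes. Points are mice and black bars are group means; Ncoa3 to Ncor1 is 0.334 to 0.575 in HFD placebo, above the 0.211 to 0.298 of LFD.

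Genes that these receptors are known to act on, and other coregulators, were read from lists chosen by textbook role. Their counts stand beside 21.3% of all tested genes higher and 22.0% lower in HFD placebo against LFD. With estradiol 14.3% were higher and 16.0% lower, all in the main fit. With a constant sum 2104 of 5615 tested genes rose and 195 fell in HFD placebo, and 259 rose and 569 fell with estradiol. As deposited 3009 rose and 18 fell in HFD placebo, and 13 rose and 263 fell with estradiol. With lane as a term these were 1189 and 1165, and 317 and 394. Within lane 6, 299 rose and 382 fell with estradiol. Without the 3 libraries highest in Ucp1, 810 rose with estradiol. Among 19 tested PPARG targets of adipocytes, 13 fell and 1 rose in HFD placebo against LFD, with a median log2 fold change of -0.66, and 11 rose and 1 fell with estradiol, with a median of 0.56. Plin1, a lipid droplet coat protein, measured 46.2 ± 6.68 (SD, n = 5) in LFD, 22.4 ± 4.34 in HFD placebo and 37.8 ± 1.46 in HFD estradiol. This list shares genes with the adipocyte markers above. Its median is 0.43 with FPKM as deposited and -0.21 with a constant sum in the first comparison, and 0.23 and 0.51 in the second. In HFD placebo 3 fell and 2 rose with a constant sum, and as deposited 1 fell and 3 rose. With estradiol 8 rose with a constant sum, 1 as deposited, 6 with lane as a term and 4 within lane 6. Gpd1 and Lpl were the 2 targets lower in HFD estradiol than in LFD. Lpl had fallen in HFD placebo, while Gpd1 was not called there (log2 fold change -0.49, limma adjusted p = 0.105) and was the 1 target that fell with estradiol, to 16.7 ± 2.97 (log2 fold change -0.79, limma adjusted p = 0.0177).

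Of 11 tested targets of PPARA and PPARD, 3 rose and 2 fell in HFD placebo, and 1 rose and 2 fell with estradiol, near the shares of all tested genes. Plin2, a droplet coat protein of many cell types, was at 14.8 ± 4.08 (SD, n = 5) in LFD, 45.3 ± 3.06 in HFD placebo and 14.0 ± 1.19 in HFD estradiol. Of 11 tested liver X receptor targets, 3 rose and 5 fell in HFD placebo, and 4 rose and 2 fell with estradiol. With a constant sum, with lane as a term or within lane 6, 0 rose and 2 fell with estradiol, and with a constant sum 3 rose and 2 fell in HFD placebo. Abcg1, a cholesterol exporter of macrophages, rose in HFD placebo (log2 fold change 1.01) and fell with estradiol (-0.76), while Apoc1 fell in HFD placebo (-1.87). Levels of the receptors Nr1h2 and Nr1h3 themselves passed the main test in no comparison.

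Of 4 tested genes of thyroid hormone supply and response, 3 fell in HFD placebo and 2 rose with estradiol. With lane as a term or a constant sum 1 rose with estradiol. In HFD placebo 2 fell and 1 rose with a constant sum. Thrsp, a lipogenic gene that thyroid hormone induces, measured 86.0 ± 34.9 (SD, n = 5) in LFD, 7.78 ± 0.998 in HFD placebo and 25.3 ± 10.3 in HFD estradiol, and stayed lower in HFD estradiol than in LFD (log2 fold change -1.74, limma adjusted p = 0.0012). Klf9, a transcription factor that thyroid hormone induces, had log2 fold changes of -0.36 and 0.29 in the first and second comparison. Of 6 tested genes of retinoid supply and response, 1 rose and 2 fell in HFD placebo, and 3 rose and 1 fell with estradiol. With lane as a term or within lane 6, none of the 6 was called with estradiol, and with a constant sum 3 rose and 2 fell in HFD placebo. Rbp4, the retinol carrier, was at 22.1 ± 2.89 in LFD, 6.47 ± 1.08 in HFD placebo and 9.32 ± 1.65 in HFD estradiol. Of 9 tested targets of the estrogen-related receptors and PGC-1, 4 fell in HFD placebo and 0 changed with estradiol, but 5 rose with estradiol when the 3 libraries highest in Ucp1 were left out. In HFD placebo 0 fell with a constant sum. The vitamin D list had 1 tested gene, which was not called.

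Of 11 tested coregulators outside the 39 genes, 6 fell and 0 rose in HFD placebo, and 3 rose and 0 fell with estradiol. With a constant sum 0 fell and 1 rose in HFD placebo, and 1 rose with estradiol, while with lane as a term 5 fell in HFD placebo and 2 rose with estradiol. Nrip1, a corepressor of nuclear receptors in fat that estrogen is known to induce, was at 4.49 ± 1.02 (SD, n = 5) in LFD, 2.18 ± 0.256 in HFD placebo and 5.07 ± 1.34 in HFD estradiol. Its log2 fold changes were -0.77 and 0.91 in the first and second comparison. Ncoa4 had -0.39 and 0.22, and the acetyltransferase gene Crebbp -0.23 and 0.22. With FPKM as deposited the median of this list in HFD placebo against LFD was 0.59, below the 0.77 of all tested genes. As deposited, the medians of all the lists named here are positive in that comparison. With a constant sum those of the PPARG targets and the thyroid genes are negative, and those of the PPARA and PPARD targets, liver X receptor targets, retinoid genes, estrogen-related receptor targets and coregulators are positive.

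Of 4 tested nuclear receptors outside the 39 genes, 3 fell and 0 rose in HFD placebo against LFD, and 2 rose and 0 fell with estradiol. Among them Nr3c1, the glucocorticoid receptor, had log2 fold changes of -0.53 (limma adjusted p = 3.6e-05) in the first comparison and 0.47 (limma adjusted p = 0.00019) in the second. These are values of the main fit, relative to the typical gene, and other scalings are not given for them here. Immediate early genes were checked beside the Nr4a receptors, which are immediate early genes themselves. Of 7 tested, 3 (Atf3, Junb, Dusp1) rose in HFD placebo and fell with estradiol, where 1 fell with lane as a term. Nr4a1 measured 0.649 in HFD placebo mouse 1 and 0.195 to 0.297 in the other 4, and neither Nr4a1 nor Nr4a2 was called.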

How the data were processed

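Libraries from total RNA of 15 mice were stranded, with ribosomal RNA removed, per the labels' protocols. The authors deposited FPKM per gene symbol, made with STAR and Cufflinks on mm10 per the submitters' processing notes; versions and strand settings are not given in the sources used here, and the number of reads per library was not used here, so the fragments behind a value were estimated from the steps between low values. A median-of-ratios factor over 5874 genes scaled each library. A gene entered the test if its scaled FPKM reached 1 in 5 or more libraries, and was fitted on log2(scaled FPKM + 1) with limma 3.58.1 in R 4.3.3 (group only, trend and robust moderation, two-sided, Benjamini-Hochberg over 5615 genes, threshold 0.05). The pseudocount makes fold changes of low genes smaller. A second fit used 0.1 in 5 libraries and a pseudocount of 0.1 (12693 genes). Tested on simulated data for HFD placebo against LFD over 5615 genes, the fit recovered 72.0% of changes of 0.5 and 98.0% of changes of 1 on the log2 scale. There were 8 false calls among 5415 unchanged genes. The simulated noise was normal and independent between genes, 200 genes were changed, and lane, depth and scaling did not differ. Errors from these sources were therefore not tested. Summaries used Python 3.11.15, pandas 2.3.3 and numpy 2.4.6. Gene positions, exon overlaps and starts come from GENCODE vM21 and RefSeq, both on GRCm38.

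The members, the related lists and the marker lists were chosen with earlier results of these data known. Every member is named, those called with their values; from each related list up to 3 called genes with the smallest adjusted p could be named. Replicate numbers are separate mice, and the labels state no pairing. Same-numbered libraries correlated at -0.210 to 0.360 in their deviations from the group means, highest for LFD 1 and HFD estradiol 1. Such correlations cannot show that no pairing exists, and results with the replicate number as a block are given below. No libraries held identical values. Each group is 5 mice from the same study. In the main fit, p-values weigh group differences against the spread between these mice within groups. That spread was estimated over all 15 libraries and moderated across genes.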

Additional observations from a re-analysis of the deposited data

Results flagged for a closer look

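In 6 of 90 groups of 5 libraries, 1 mouse stood so far from the other 4 that its gap exceeded the 95% limit of Dixon's test (0.71 of the group's range); chance flags about 1 in 20 groups. All 6 were high values in scaled FPKM. Thra was at 3.57 in HFD estradiol mouse 3, against 2.70 to 2.91 in the others, and Thrb at 1.10 in HFD estradiol mouse 5, against 0.590 to 0.618. Nr4a1 (0.649 against 0.195 to 0.297) and Nr4a2 (0.253 against 0.0885 to 0.107) were both high in HFD placebo mouse 1. Ncoa1 was at 1.40 in HFD placebo mouse 2, against 1.19 to 1.23, and Ncoa3 at 1.74 in HFD estradiol mouse 1, against 1.22 to 1.35.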

How the results depend on the processing

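Scaling decided most calls, as the deposited FPKM differ in overall level between libraries. They differ also within HFD placebo, where the sum was 34544 in mouse 1 (lane 5) and 105910 in mouse 4 (lane 6). The median of all tested genes is 0.77 as deposited for placebo against LFD, -0.27 for estradiol against placebo and 0.49 for estradiol against LFD. A constant sum counts Mir6236, whose share of the sum ran from 10.2% to 53.1%, and its part in the lost calls was not tested. For HFD placebo minus LFD, 7 of 11 tested genes were called with the median-of-ratios factor and 4 with an upper-quartile factor. As deposited 2 were called (both higher, Nr1h2 and Ncoa3), and with a constant sum 1 (higher, Ncoa3). Of all 5615 tested genes, 3009 were higher and 18 lower as deposited. With a constant sum 2104 were higher and 195 lower, and with an upper-quartile factor 1393 and 891. As deposited, the log2 fold changes turned to 0.18 for Pparg, 0.31 for Thra, 0.60 for Rxra, 0.45 for Rora, 0.52 for Ncoa1, 0.54 for Ncoa2, 0.51 for Ncor1 and 0.26 for Thrb; with a constant sum Rxra (0.042), Rora (0.047), Ncoa1 (0.067) and Ncoa2 (0.11) turned. For HFD estradiol minus HFD placebo, 5 were called, against 0 as deposited and 0 with a constant sum, 3 with lane as a term and 2 within lane 6. The number of all tested genes called higher went from 805 to 13, 259, 317 and 299 in the same order. Ncoa1 turned to -0.045 as deposited. For HFD estradiol minus LFD, 0 were called, and 1 (Rarg, higher) with a constant sum, where 554 of all tested genes were higher and 29 lower. Of all called genes, the share that was higher moved from 49.2% to 99.4% as deposited in the first comparison, from 47.2% to 4.7% in the second and from 51.4% to 100% in the third. Leaving out 1 mouse at a time gave 6 to 7, 4 to 8 and 0 calls in the 3 comparisons, with 8 without HFD estradiol 1. With the replicate block, 6, 5 and 0 were called, only Ncoa2 being lost (adjusted p = 0.0512). Leaving out the 3 libraries highest in Ucp1, added after seeing the data, gave 6, 5 and 0. Depth limits what can be said of the genes below the main filter.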
